A study of Mus musculus with 4 samples.

Results

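The potassium channel genes were followed in RNA of whole fetal brain after 2 kinds of maternal food shortage. The members are all genes whose name on the array begins with Kcn and a subfamily letter, 87 of the 28105 genes on the array, read by 129 probes of 60 bases. By family they are 37 voltage-gated pore subunits, 12 auxiliary subunits (Kcnab, Kcne and Kcnip genes), 14 inward rectifiers, 11 two-pore channels and 9 calcium-activated channel genes. The remaining members are 3 relatives of the calcium-activated Slo channel (Kcnt1, Kcnt2 and Kcnu1) and the noncoding transcript Kcnq1ot1, which lies antisense to Kcnq1 and is no channel. A member was measured in a comparison when its probe stood well above background in both channels of both arrays, and of several such probes the brightest was taken. This left 72 members after food deprivation, 72 after food restriction, 69 in both and 75 in at least 1.

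All animals were C57BL/6J mice. In the food deprivation (FD) group the dams went without food overnight on gestation day 17, and in the food restriction (FR) group the dams had 50% of the chow that controls ate from gestation day 10 to 17. Control dams ate chow ad libitum. Fetuses of the FR group were taken on gestation day 18, and the series text leaves the day implicit for FD. The RNA of 5 fetal brains was pooled for each group, and each treated pool was hybridised with control RNA on 2 two-colour arrays with the dyes exchanged, with the treated pool in Cy5 on array 1 and in Cy3 on array 2. The labels do not say from how many litters the fetuses came, nor whether the FD and FR arrays used the same control RNA, so both comparisons may share it.

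Potassium channels let potassium leave the cell and so pull the membrane potential toward rest. Voltage-gated channels end the action potential, inward rectifiers and two-pore leak channels hold the resting potential, and calcium-activated channels brake firing after calcium entry. Their currents are added step by step as neurons of the fetal brain mature, and auxiliary subunits set how many pores reach the membrane and how fast they close.

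Every condition is 1 pool, so the 2 arrays of a comparison repeat the hybridisation and not the animals, and the differences were not tested. The values are log2 ratios of the treated over the control pool, given for array 1 and then array 2, and an SD over 2 arrays is technical. A gene was called where both arrays of a comparison showed a difference of 1.5-fold or more in the same direction. The technical SD of a dye-swap mean, from the differences between the arrays, was 0.113 over all genes for FD and 0.117 for FR, and 0.109 and 0.0972 over the members. Each array held 43379 spots other than controls, of which 71.4% to 85.3% per channel were well above background, and no member probe was saturated. As a check of the tissue label, all 8 neuron markers had a value on the FD arrays and 7 on the FR arrays, with a mean log2 channel signal of 11.5 to 11.7 in the pools. Of the skeletal muscle markers, 8 of 8 measured were below 0 and 7 were called lower in FD, where their mean log2 signal was 9.65 in the control and 7.80 in the FD pool, against 8.25 in the FR pool and 8.26 in its control. Of the pituitary markers, 2 of 4 measured were called lower in FD, Gh with a mean of -1.52 and Pomc with -1.05, and 0 of 5 in FR. With whole-tissue RNA, fewer cells of a type and less RNA per cell cannot be told apart.

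Very few potassium channel genes differed by the fold set for a call. After food deprivation, 0 of 72 measured members were called, beside 0.217% of all 17951 genes measured. After food restriction, 1 of 72 was called, the inward rectifier gene Kcnj12, which fell, beside 1.01% of all 18550 genes, and 0.431% for lower genes alone. Both shares are near those of all genes. In FD against FR, the difference between the log2 ratios of arrays with the same dye order, 0 of 69 members were called, beside 0.34% of 16750 genes, and 26 members were above 0 and 14 below 0 on both pairs, beside 31.2% and 30.1% of all genes. Counted without regard to size, 24 of 72 members (33.3%) were below 0 on both FD arrays, where 23.3% of all genes were, and 32 of 72 (44.4%) were below 0 on both FR arrays, where 27.4% of all genes were. Members above 0 on both arrays numbered 15 in each comparison, beside 25.5% of all genes in FD and 28.3% in FR. These shifts were small: the median log2 ratio of the members was -0.01 in FD and -0.03 in FR, and that of all genes was 0.00 and 0.01. In FR, 22 of 47 members with an average log2 signal under 8 were below 0 on both arrays and 7 above it, with a median of -0.05. These 22 are 46.8%, beside 26.3% of all genes at that level. Of the 25 brighter members 10 were below and 8 above 0 on both arrays, with a median of 0.04, so the median was below 0 only among the dimmer ones.

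**Figure D1:**
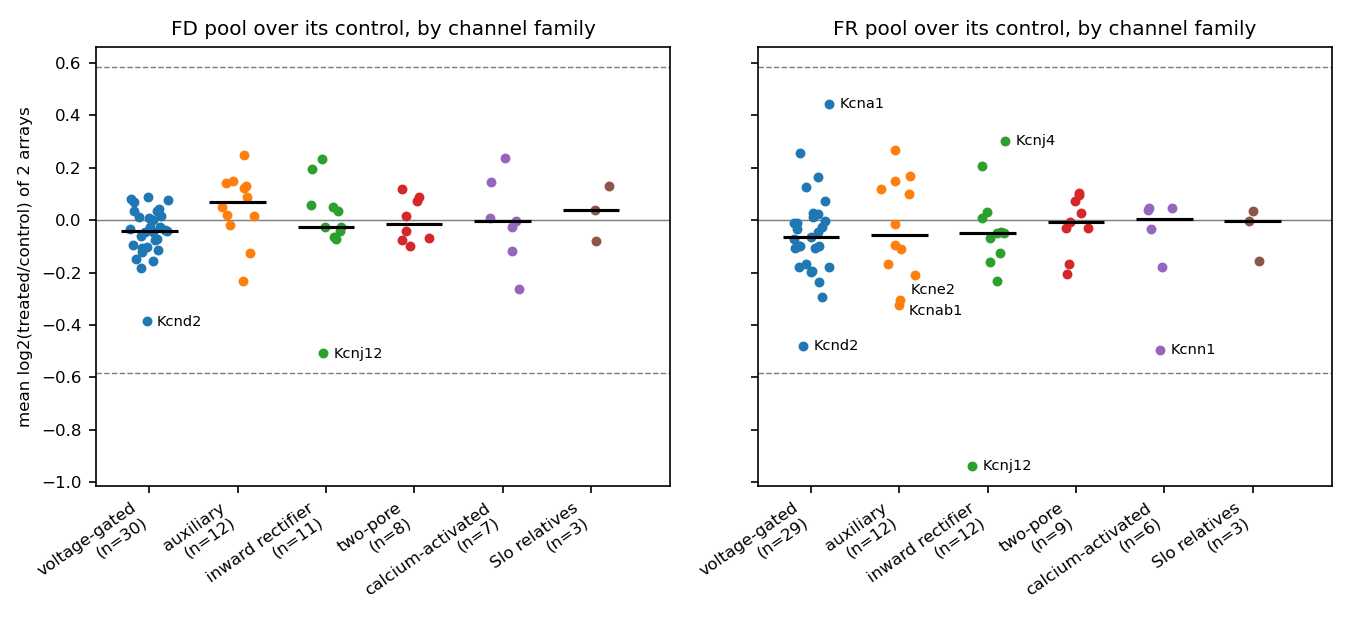
Each point is 1 measured member, the vertical axis is its mean log2 ratio of treated over control RNA on 2 arrays, and the columns are the channel families with the number of members measured. Black bars are family medians and dashed lines mark 1.5-fold. Most members lie within 0.2 of 0 in both panels, and Kcnj12 is the only member whose mean passes a dashed line, at -0.94 in FR.

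Most members kept close to their control, as most measured genes did. The mean was at least 0.2 in size in 7 of 72 members in FD and in 16 of 72 in FR, beside 11.4% and 23.1% of all genes. Genes with more than 1 measured probe gave a view of probe error: all probes of a gene had means of the same sign in 13 of 19 such members in FD and in 12 of 18 in FR. The median spread between the probes of a gene was 0.12 and 0.07, and the largest was 0.33 for Kcnj4 in FD and 0.37 for Kcnq1ot1 in FR.

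**Figure D2:**
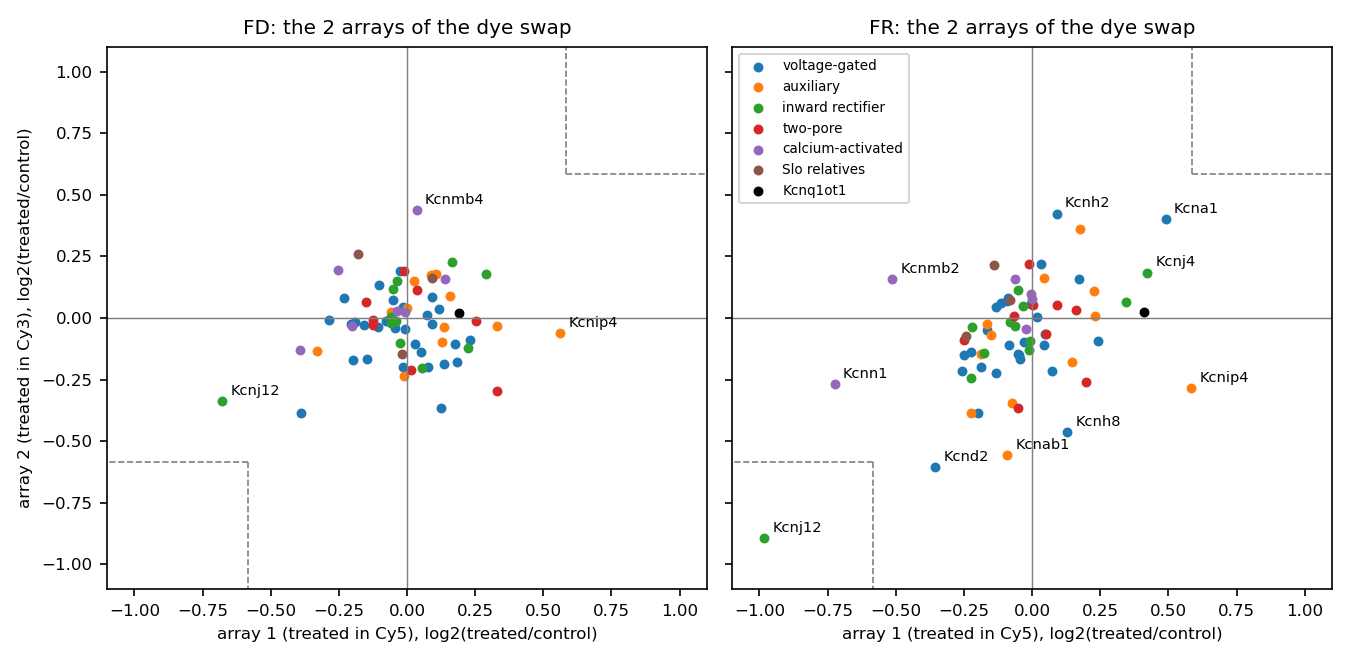
Each point is 1 measured member, with its log2 ratio of treated over control RNA on array 1 (horizontal) and on array 2 with exchanged dyes (vertical), coloured by family. Dashed corners mark at least 1.5-fold on both arrays, and only Kcnj12 in FR lies inside one. Kcnip4 lies to the lower right or near the horizontal axis in both panels, with 0.56 and -0.06 in FD and 0.58 and -0.28 in FR. The arrays thus disagree by dye for the probe shown, its brightest.

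Inward rectifiers pass potassium best near rest, and Kcnj12 encodes Kir2.2, a strong rectifier of neurons and of muscle. Its log2 channel signal was 7.91 and 7.95 in the FD pool and 8.59 and 8.29 in the FD control, and it was 7.28 and 7.75 in the FR pool and 8.27 and 8.65 in the FR control. On each array the treated pool lay below the control it was hybridised with. The log2 ratios were -0.98 and -0.89 in FR, a mean of -0.94 ± 0.06 (SD, n = 2 arrays) or 1.91-fold lower. In FD they were -0.68 and -0.34, a mean of -0.51 ± 0.24 (SD, n = 2 arrays) or 1.42-fold lower, past the fold on array 1 alone. The FR call was lost where normexp was fitted on all spots of array 2, bright patch included, with a mean of -0.52. Kcnj12 was read by a single probe at chr11:60884085-60884143 on build mm9, and the array files give no exon or untranslated region for a probe. The average log2 signal of Kcnj12 was 7.88 in FR and 8.29 in FD. Among all 9279 genes with an average log2 signal under 8 in FR, Kcnj12 had the lowest mean. Its low FR pool enters that average, so the cut is not independent of the change and the rank is no support. Over all 18550 genes measured in FR the lowest mean was -1.19. Kcnj12 was lower in FR than in FD on both array pairs (FD minus FR 0.30 and 0.55). The muscle markers had a median of -1.91 in FD and of 0.02 in FR, where 0 of 10 were called, and their part in the values of Kcnj12 was not tested.

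The other inward rectifiers lay nearer to 0. Kcnj4, which encodes the related Kir2.3, gave 0.29 and 0.18 in FD and 0.42 and 0.18 in FR, so both treated pools were above their control on every array. The means of Kcnj4 were 0.23 ± 0.08 and 0.30 ± 0.17 (SD, n = 2 arrays). A dimmer Kcnj4 probe did not share this, with -0.12 and -0.07 in FD and 0.01 and 0.26 in FR. Kcnj8 encodes Kir6.1, the pore of the ATP-sensitive channel of pericytes and smooth muscle, and its 2 comparisons rest on different probes. The brighter Kcnj8 probe gave 0.17 and 0.23 in FD, and on the FR arrays it gave 0.01 on array 1 and carried an outlier flag on array 2. The dimmer Kcnj8 probe, the one used for FR, gave -0.22 and -0.24 there and -0.09 and 0.12 in FD. Within neither probe were both FD arrays above 0 and both FR arrays below it. The sulfonylurea receptors Abcc8 and Abcc9, which complete ATP-sensitive channels, had means of 0.01 and -0.09 in FD and -0.11 and 0.03 in FR. Kcnj10, the Kir4.1 channel of glia, gave 0.23 and -0.12 in FD and 0.34 and 0.07 in FR, and the G-protein-gated subunits Kcnj3, Kcnj6 and Kcnj9 had means between -0.13 and -0.03. Over the family, 4 of 11 members in FD and 8 of 12 in FR were below 0 on both arrays, with medians of -0.03 and -0.05. Of 7 astrocyte markers, 5 were below 0 on both arrays in FR, with a median of -0.28, and 3 in FD, with a median of 0.08. The part of cell makeup in the values of the glial channels was not tested.

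Among the voltage-gated pores, Kcnd2 stood lowest in both comparisons. It encodes Kv4.2, which carries a fast A-type current in dendrites. Its log2 signal was 9.56 and 9.32 in the FD pool, 9.95 and 9.70 in the FD control, 9.03 and 9.43 in the FR pool and 9.38 and 10.04 in the FR control, so the treated pool was lower on each of the 4 arrays. The log2 ratios were -0.39 and -0.38 in FD, a mean of -0.39 ± 0.00 (SD, n = 2 arrays), and -0.36 and -0.60 in FR, a mean of -0.48 ± 0.18. The probe, which spans chr6:21676189-21677188 on mm9, passed 1.3-fold on both arrays in FD, as 0.774% of all genes did. A brighter Kcnd2 probe at chr6:21679569-21679628 was left out because it carried outlier flags on 3 of the 4 arrays. With flagged spots kept, that probe gave 0.65 and -0.23 in FD and 0.63 and -0.52 in FR, so its arrays disagreed by dye and its means were 0.21 and 0.06. The direction for Kcnd2 therefore rests on the dimmer probe.

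Kv4 channels work with Kcnip (KChIP) and dipeptidyl peptidase-like subunits, which bring the pore to the membrane and tune its inactivation. Kcnip1 gave 0.09 and 0.17 in FD and 0.18 and 0.36 in FR, above the control on all 4 arrays. The brighter Kcnip4 probe disagreed between arrays in both comparisons, with 0.56 and -0.06 in FD and 0.58 and -0.28 in FR. Its means of 0.25 and 0.15 have SDs of 0.44 and 0.61. A dimmer Kcnip4 probe gave 0.15 and 0.03 in FD and 0.16 and -0.03 in FR. The peptidase-like partners Dpp6 and Dpp10 had means of 0.01 and 0.19 in FD and -0.14 and 0.26 in FR. Kcnip3 went the other way, with -0.01 and -0.24 in FD and -0.07 and -0.34 in FR, below the control on all 4 arrays. A dimmer Kcnip3 probe gave -0.16 and 0.13 in FD and -0.33 and -0.04 in FR. Kcnip2 gave 0.00 and 0.04 in FD and -0.17 and -0.02 in FR. None of the 4 measured Kcnip genes was called in either comparison.

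Kcna1 was the member with the highest mean in FR and the one that differed most between the 2 shortages. It encodes Kv1.1, an axonal channel that limits excitability. Its log2 signal was 9.92 and 10.46 in the FR pool and 9.43 and 10.06 in the FR control, while the FD pool gave 9.82 and 9.60 and the FD control 9.98 and 9.63. The FR pool was thus above its control on both arrays and the FD pool below its control on both, by little on array 2. The log2 ratios were 0.49 and 0.40 in FR, a mean of 0.45 ± 0.06 (SD, n = 2 arrays) or 1.36-fold higher, and -0.16 and -0.03 in FD, a mean of -0.09 ± 0.09. FD minus FR was -0.65 and -0.43 on the array pairs, short of the fold on the second. Both pass 1.3-fold, as 1.64% of all genes did in that comparison, and so do both FR ratios, as 3.77% of all genes did in FR. The probe lies at chr6:126591727-126591786 on mm9.

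Kcnab1, which encodes a Kv beta subunit that gives Kv1 channels fast inactivation, differed the other way. Its log2 ratios were 0.33 and -0.03 in FD and -0.09 and -0.56 in FR, and FD minus FR was 0.42 and 0.52, a mean of 0.47. The arrays of each comparison disagreed with one another more than for Kcna1, with SDs of 0.26 in FD and 0.33 in FR. The Kv1 pore Kcna4, an A-type channel, gave 0.05 and -0.14 in FD and -0.20 and -0.39 in FR. Genes whose proteins cluster Kv1 channels at the axon went in both directions: Cntn2 had means of -0.22 in FD and -0.34 in FR, Cntnap2 of -0.11 and 0.17, and Lgi1 of 0.12 and 0.05. None of the 5 clustering genes measured was called.

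**Figure D3:**
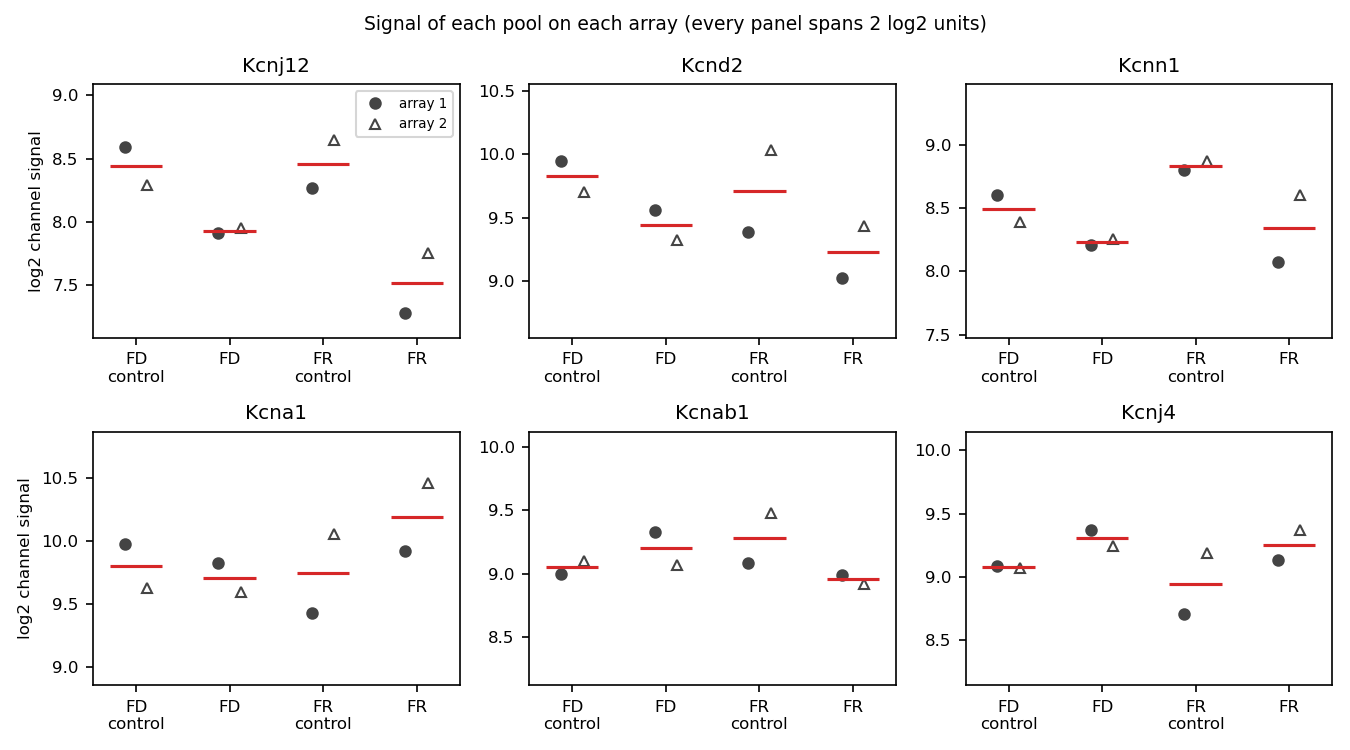
Each panel gives 1 member, with the log2 channel signal (vertical axis) of the FD control, FD, FR control and FR pools. Circles are array 1, open triangles are array 2 and red bars are their means, and the panels span the same number of log2 units. Kcnj12 is lowest in the FR pool (7.28 and 7.75), and Kcna1 is highest there on array 2 (10.46), although the FR pools and controls differ by array as well.

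Kcnh1 and Kcnq5 had values that repeated closely between arrays, and their size depended on the processing. Kcnh1, an ether-a-go-go channel, gave -0.20 and -0.17 in FD and -0.26 and -0.22 in FR. A second, dimmer Kcnh1 probe gave 0.08 and -0.15 in FD and -0.08 and -0.03 in FR. Kcnq5, which contributes to the M-current that damps repetitive firing, gave -0.15 and -0.17 in FD and -0.19 and -0.20 in FR. With the scanner's own log ratio, the means were -0.30 in FD and -0.39 in FR for Kcnh1, and -0.34 and -0.43 for Kcnq5. Over the voltage-gated family, 13 of 30 members in FD and 13 of 29 in FR were below 0 on both arrays, and the medians were -0.04 and -0.06. The FD median of this family turned to 0.0045 with the scanner's own log ratio. The 6 Kv1, 4 Kv3 and 3 Kv7 pores measured in FD had medians of -0.01, -0.03 and -0.11, and none of these was called.

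Kcne2 encodes a small auxiliary subunit that is found with potassium channels of the choroid plexus, the epithelium that makes cerebrospinal fluid. It gave -0.33 and -0.13 in FD and -0.23 and -0.39 in FR, below the control on all 4 arrays, with means of -0.23 ± 0.14 and -0.31 ± 0.11 (SD, n = 2 arrays). Of 4 choroid plexus markers 3 had a value, and their medians were 0.02 in FD and 0.09 in FR, with Clic6 highest at 0.11 and 0.40 and Kl lowest at -0.06 and -0.07. The part of choroid plexus content in the values of Kcne2 was not tested. As a family, the 12 auxiliary genes had medians of 0.07 in FD and -0.06 in FR.

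Kcnn1 stood lowest among the calcium-activated channels. It encodes SK1, a small-conductance channel opened by calcium through calmodulin. Its log2 signal was 8.21 and 8.26 in the FD pool, 8.60 and 8.39 in the FD control, 8.08 and 8.60 in the FR pool and 8.80 and 8.87 in the FR control, the treated pool being lower on every array. The log2 ratios were -0.39 and -0.13 in FD, a mean of -0.26 ± 0.19 (SD, n = 2 arrays), and -0.72 and -0.27 in FR, a mean of -0.50 ± 0.32, so that array 1 of FR alone was past 1.5-fold. The single Kcnn1 probe lies at chr8:73367405-73367464 on mm9. Its relative Kcnn2 (SK2) gave 0.14 and 0.16 in FD and -0.00 and 0.10 in FR. A dimmer Kcnn2 probe did not repeat the FD agreement, with 0.28 and -0.24 in FD and 0.23 and -0.02 in FR. Kcnn3 and Kcnn4 had means between -0.03 and 0.04.

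The large-conductance (BK) channel pore Kcnma1 gave -0.20 and -0.03 in FD and -0.06 and 0.16 in FR. Its beta subunit Kcnmb2 disagreed between arrays, with -0.25 and 0.20 in FD and -0.51 and 0.16 in FR. Kcnmb4, the beta subunit typical of neurons, gave 0.04 and 0.44 in FD and carried outlier flags in FR. With flagged spots kept, Kcnmb4 gave 0.17 and 0.19 in FR. Of the Slo relatives, the sodium-activated channels Kcnt1 and Kcnt2 had means of 0.13 and -0.08 in FD and 0.04 and -0.00 in FR, and Kcnu1, the Slo3 channel known from sperm, 0.04 and -0.16.

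Two-pore channels carry the background leak current, and none of them was called. The largest mean was that of Kcnk2 (TREK-1, opened by stretch and lipids) in FR, -0.21, with -0.05 and -0.36, beside 0.02 and -0.21 in FD. Kcnk4 (TRAAK, of the same group) gave -0.13 and -0.03 in FD and -0.25 and -0.09 in FR. With the scanner's own log ratio, the FR means were -0.45 for Kcnk2 and -0.42 for Kcnk4. Kcnk3 (TASK-1, closed by acid) gave -0.01 and 0.19 in FD and -0.01 and 0.22 in FR, and Kcnk6 gave 0.25 and -0.01 in FD and 0.16 and 0.03 in FR. Over the family, 2 of 8 members in FD and 2 of 9 in FR were below 0 on both arrays, and both medians were -0.01.

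The start regions of Kcnj12, Kcnd2 and Kcnn1, each with the lowest mean of its family in both comparisons, are shown so that their base makeup can be set side by side. Each is the 250 bases before an annotated start from RefSeq on build GRCm38.p6, another build than that of the probes, 5′ to 3′, with the GC box GGGCGG, searched on both strands, in capitals.
Kcnj12 (chr11:61065554-61065803, plus strand): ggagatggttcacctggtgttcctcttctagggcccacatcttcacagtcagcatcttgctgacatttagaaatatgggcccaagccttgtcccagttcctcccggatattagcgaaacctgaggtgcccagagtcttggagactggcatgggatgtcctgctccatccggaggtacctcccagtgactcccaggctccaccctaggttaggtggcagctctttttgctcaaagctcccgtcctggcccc
Kcnd2 (chr6:21215096-21215345, plus strand): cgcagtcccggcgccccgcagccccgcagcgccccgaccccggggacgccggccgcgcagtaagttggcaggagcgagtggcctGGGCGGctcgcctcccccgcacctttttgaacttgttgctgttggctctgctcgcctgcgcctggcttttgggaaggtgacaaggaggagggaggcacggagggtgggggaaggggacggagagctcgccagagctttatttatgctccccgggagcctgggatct
Kcnn1, first start (chr8:70863259-70863508, minus strand): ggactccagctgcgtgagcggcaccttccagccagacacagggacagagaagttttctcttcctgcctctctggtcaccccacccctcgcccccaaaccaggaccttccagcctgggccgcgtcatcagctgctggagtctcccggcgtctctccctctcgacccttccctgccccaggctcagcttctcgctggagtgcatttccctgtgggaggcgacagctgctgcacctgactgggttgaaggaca
Kcnn1, second start (chr8:70857009-70857258, minus strand): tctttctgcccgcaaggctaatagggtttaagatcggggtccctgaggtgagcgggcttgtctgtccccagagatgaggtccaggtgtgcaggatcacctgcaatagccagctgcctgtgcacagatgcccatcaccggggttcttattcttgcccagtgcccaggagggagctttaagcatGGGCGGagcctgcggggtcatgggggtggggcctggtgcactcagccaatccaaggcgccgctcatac
The Kcnd2 region held 1 GC box, as did the second of the 2 Kcnn1 starts, and the Kcnj12 region held 0, where 32.7% of 32851 start regions of this length held at least 1. None of the 4 regions held TATAAA or the cyclic AMP response element TGACGTCA on either strand, which 12.4% and 1.55% of all regions did. The share of G and C was 56.0% for Kcnj12, 68.8% for Kcnd2 and 63.6% and 60.4% for Kcnn1, beside a median of 52.4%. RefSeq start regions were at hand for 64 of the 87 members, and these letters are a description with no bearing on binding.

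Genes that act with potassium channels gave a like picture. Of 45 listed partners, 38 had a value in FD and 39 in FR. None was called in FD, and 1 was called lower in FR, beside the background shares above. The gene called was Cacna1g, which encodes the T-type calcium channel Cav3.1, with -0.82 and -0.83 in FR and -0.25 and -0.51 in FD. Scn2b, an auxiliary sodium channel subunit, gave -0.52 and -0.75 in FR and -0.15 and -0.28 in FD, below its control on all 4 arrays. Of the sodium channel pores, Scn1a had means of -0.30 and -0.21. The BK gamma subunit gene Lrrc55 (-0.18 and -0.24), the Kv2 partner Amigo1 (-0.05 and -0.07) and the chloride cotransporter genes Slc12a2 (0.06 and 0.15) and Slc12a5 (-0.03 and -0.16) were not called either. The partners had a median of -0.05 in both comparisons, and 19 of 38 in FD and 17 of 39 in FR were below 0 on both arrays.

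No value was had in either comparison for 12 members, among them Kcnd1, Kcng3, Kcnh7, Kcnj2, Kcnj5, Kcnk16, Kcnmb1 and Kcnv2. Their probes were well above background in some channels or in none, and in no gene did that split treated from control pools on both arrays. A further 3 members had a value in FD alone (Kcna3, Kcna6 and Kcnmb4), of which Kcna6 and Kcnmb4 were lost in FR to outlier flags, and 3 in FR alone (Kcnj1, Kcnk5 and Kcnq3). With flagged spots kept, Kcna6 gave -0.26 and -0.33 in FR, against -0.19 and -0.01 in FD.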

How the data were processed

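Total RNA of pooled fetal brain was measured on 2-colour Agilent arrays, 4 arrays on 1 slide. Per the file headers, the deposited scanner files come from Agilent Feature Extraction 9.5.3.1 and give, for each spot and channel, a mean intensity and a local background intensity (its median), neither corrected. Also deposited is the scanner's log10 ratio (red over green), which per the file headers had its background subtracted, was detrended over the slide and normalised for dye, with flags of 0 or 1. The deposited value table has no stated unit. Compared with the scanner ratio, the authors' deposited values are log2 ratios with the treated pool on top, and what was done to dim spots is not known.

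In limma 3.58.1 (R 4.3.3), spots whose local background exceeded the array median more than 2 times were left out, 3 on FD array 1 and 42 on FR array 2, where a bright patch lies. Intensities were corrected with normexp (offset 50), which shrinks ratios of dim probes, and normalised by loess within arrays with control spots at weight 0. Spots with an outlier flag were left out, spots of a probe averaged, and swapped arrays turned. Channel signals come from loess followed by Aquantile. Genes were named through RefSeq identifiers or symbols (26910 probes by accession; 119 of the 129 member probes), and members by the name in the files. The steps were tested on simulated dye swaps with changes larger than most of those given here, so the test does not bear on small changes.

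Named members are all those called, the 3 largest means per family and comparison, and the Slo relatives; of the partners, up to 3 per list with the largest means. Some genes that these rules take are not reported here. Members, lists and rules were chosen with earlier results of these data known. Whether the control RNA was shared, the labels do not say, so no count of genes changed alike in FD and FR is given. For genes said to go the same way in both comparisons, FD and FR are therefore not known to be separate repeats. Alternatives covered background correction, centring, the scanner's ratio, the deposited table, the dim filter, probe choice, flags, the fold and leaving out an array.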

Additional observations from a re-analysis of the deposited data

Results flagged for a closer look

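Kcna1, the axonal channel Kv1.1, was below its control on both FD arrays (-0.16 and -0.03) and above it on both FR arrays (0.49 and 0.40), read by the same probe. FD minus FR was -0.54 on average. The difference was not tested, since each condition is 1 pool, and on FD array 2 the value lay next to 0. Among the 69 members read by the same probe in both comparisons, 1 other went one way on both FD arrays and the opposite way on both FR arrays. This was Kcnip2, with 0.00 and 0.04 in FD and -0.17 and -0.02 in FR, partly next to 0. No family median did so. Kcnj8 did so only between its different probes.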

How the results depend on the processing

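No paired analysis was possible because each condition is 1 pool, the replicate numbers mark the arrays of a technical dye swap, and no test was run. The FD median of -0.0101 became 0.0107 without background correction, -0.0025 with median centring, 0.0269 with the scanner's own log ratio and with the authors' deposited table, 0.0093 without the filter on dim probes, and -0.0005 with members by current symbol. Of alternatives added after the data were seen, keeping flagged spots gave -0.0005 and the brightest probe of all 4 arrays -0.0168. Leaving out an array gave -0.0139 and -0.0116. The FR median of -0.0326 became -0.0484 without background correction, -0.0251 with normexp on all spots and -0.1064 with the scanner's ratio and the deposited table, and -0.0498 to -0.0454 without 1 array. The FD median of all genes moved as well, from 0.0043 to 0.0361 with median centring and 0.0117 with the scanner's ratio, and was 0.0034 without background correction. With median centring the FD members thus lay further below all genes than in the main setting. The member medians have no threshold, and the sign of the FD one depends on the processing. Some family medians changed sign too: the voltage-gated one in FD to 0.0045 with the scanner's ratio, the auxiliary one in FD to -0.0036 without array 1, and those of the two-pore and calcium-activated families in both comparisons.

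The count of members called in FR went from 1 to 0 with normexp on all spots, where Kcnj12 was at -0.52 and array 2 carries the bright patch. It was 3 (Kcne4 higher, Kcnj12 and Kcns2 lower) with the scanner's ratio and the deposited table, where Kcnj12 was at -1.40. It was 2 at 1.3-fold (Kcna1, Kcnj12), 2 by current symbol, 2 without array 1 (Kcnd2, Kcnj12) and 2 without array 2 (Kcnj12, Kcnn1). The count in FD was 1 at 1.3-fold (Kcnd2), and without 1 array between 0 and 1 (Kcnj12 on array 1). FD against FR gave 2 at 1.3-fold (Kcna1, Kcnab1), and 0 to 1 without 1 array pair (Kcna1). The mean of Kcnd2 turned above 0, to 0.21 in FD and 0.06 in FR, with flagged spots kept, since a brighter probe then stood for the gene. A ratio of dim probes is limited by their signal over background, and variation between pools is not measured.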

Other observations

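A probe that the array files name 4933400F03Rik carries a sequence now annotated as Kcnmb4os2, a transcript opposite to the BK beta subunit gene Kcnmb4, and was singled out after its values were seen. It lies at chr10:115911955-115912014 on mm9 and gave 0.73 and 0.88 in FR, a mean of 0.80, and 0.11 and 0.57 in FD, a mean of 0.34. It was above its control on all 4 arrays and past 1.5-fold on both FR arrays. Kcnmb4 itself gave 0.04 and 0.44 in FD and, with flagged spots kept, 0.17 and 0.19 in FR. Other probes that carry a Kcn name only by current annotation, Kcng1 with means of 0.07 and 0.05 in FD and FR and Kcnk9 with 0.07 in FR, lay near 0.

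Some members outside the naming rule, also chosen after their values were seen, stood apart by array or condition. The erg channel gene Kcnh2 gave 0.09 and 0.42 in FR and -0.23 and 0.08 in FD. Kcnh8 gave 0.13 and -0.46 in FR and 0.13 and -0.37 in FD, and the two-pore gene Kcnk1 gave 0.20 and -0.26 in FR and 0.33 and -0.30 in FD, so that both followed the dye in both comparisons. Of 8 oligodendrocyte lineage markers, 6 were below 0 on both FR arrays, with a median of -0.23, and Olig1 was called lower. In FD, 0 of 7 were below 0 on both arrays, with a median of 0.05. Of the members, 32 of 72 in FR and 24 of 72 in FD were below 0 on both arrays. The part of cell makeup in the members' values was not tested.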
